A study of Mus musculus with 6 samples.

Results

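MHC class I molecules display peptides made inside the cell to CD8+ T cells, and the mRNAs of 10 genes of this route were measured in cultured dendritic cells with and without Nfkb2. The genes were the heavy chains H2-K1, H2-D1, H2-M2, H2-M3 and H2-T23, the light chain B2m, the loading genes Tap1, Tap2 and Tapbp, and the regulator Nlrc5. They were taken by symbol, all 10 had an Ensembl ID in the count files, and all 10 were among the 21849 genes tested. Of the 10, only H2-M2 was called different between the genotypes by the quasi-likelihood test of edgeR, which called 1.14% of all genes tested. Its mRNA was 12.5-fold lower in Nfkb2-/- cells. The call lay close to the threshold and was lost when some single libraries were left out. DESeq2 also called Tap1.

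Bone marrow cells of WT mice and of mice lacking Nfkb2 in every cell (global Nfkb2-/-) were cultured for 9 days to give bone marrow-derived dendritic cells (BMDCs). Both genotypes received GM-CSF alone at 20 ng/mL for 5 days and then GM-CSF with IL-4 at 10 ng/mL for 4 days, and no further stimulus. BMDCs for experiments were the non-adherent cells, without a sort named in the methods, and their polyadenylated RNA was sequenced, with 3 libraries per genotype and 6 in all. The sources used here give neither the age nor the sex of the marrow donors for these libraries. Because the gene was absent throughout the culture, an effect on how the cells developed and an effect in the finished BMDCs cannot be told apart. Because this was bulk RNA, fewer cells of a type and less RNA per cell cannot be told apart either.

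A class I molecule is a heavy chain paired with beta-2-microglobulin, the product of B2m. The proteasome cuts proteins into peptides, the TAP1-TAP2 transporter carries them into the endoplasmic reticulum, and tapasin (Tapbp) holds an empty class I molecule at the transporter until a peptide binds. H2-K1 and H2-D1 encode the classical heavy chains seen by most CD8+ T cells, whereas H2-M2, H2-M3 and H2-T23 encode nonclassical ones. Class I promoters are switched on by NLRC5 and its partner factors, by interferon regulatory factors and by NF-kB. Nfkb2 encodes p100, the precursor of the NF-kB subunit p52, which pairs with RelB in the noncanonical pathway. Dendritic cells are known for loading class I with peptides of material they have taken up, called cross-presentation.

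In the GRCm38 genome (GENCODE M21), 8 of the 10 genes lie on chromosome 17, in or next to the MHC. These are Tapbp (chr17:33915899-33929292, plus strand), H2-K1 (chr17:33996017-34000347, minus), Tap1 (chr17:34187553-34197225, plus), Tap2 (chr17:34203527-34216321, plus), H2-D1 (chr17:35262730-35267499, plus), H2-T23 (chr17:36029773-36032855, minus), H2-M3 (chr17:37270220-37274484, plus) and H2-M2 (chr17:37480851-37483552, minus). B2m lies on chr2:122147686-122153083 (plus) and Nlrc5 on chr8:94434356-94527272 (plus). All 10 are annotated as protein coding.

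The RefSeq promoter table (GRCm38.p6) held 8 of the 10 genes. The 250 bases before the transcription start are shown 5′ to 3′ on the gene's strand. They are given for H2-M2, the only gene of the 10 that edgeR called, and for Tap1. They are also given for H2-K1 (the first of its 2 RefSeq starts), H2-D1 and B2m, the chains of the classical class I molecule. Capitals mark matches to the strict NF-kB consensus and to the interferon-stimulated response element (ISRE, searched as GAAA, then NN, then GAAA without a gap), read on both strands.
H2-M2, chr17:37483555-37483804, minus strand: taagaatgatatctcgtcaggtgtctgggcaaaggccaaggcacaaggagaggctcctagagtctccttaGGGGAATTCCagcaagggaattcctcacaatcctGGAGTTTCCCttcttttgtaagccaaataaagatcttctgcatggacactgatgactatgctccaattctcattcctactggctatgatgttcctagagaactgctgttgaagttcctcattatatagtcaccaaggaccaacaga
H2-K1, chr17:34000348-34000597, minus strand: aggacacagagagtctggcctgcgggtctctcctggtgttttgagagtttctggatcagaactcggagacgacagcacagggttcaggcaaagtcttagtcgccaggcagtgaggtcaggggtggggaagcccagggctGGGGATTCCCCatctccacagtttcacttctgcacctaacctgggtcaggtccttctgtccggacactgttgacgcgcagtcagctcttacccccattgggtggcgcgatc
H2-D1, chr17:35262844-35263093, plus strand: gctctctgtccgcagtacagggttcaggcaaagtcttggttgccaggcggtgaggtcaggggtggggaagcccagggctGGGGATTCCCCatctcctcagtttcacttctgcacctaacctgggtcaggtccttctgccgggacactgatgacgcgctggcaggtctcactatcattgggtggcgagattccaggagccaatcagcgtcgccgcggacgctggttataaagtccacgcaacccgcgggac
B2m, chr2:122147437-122147686, plus strand: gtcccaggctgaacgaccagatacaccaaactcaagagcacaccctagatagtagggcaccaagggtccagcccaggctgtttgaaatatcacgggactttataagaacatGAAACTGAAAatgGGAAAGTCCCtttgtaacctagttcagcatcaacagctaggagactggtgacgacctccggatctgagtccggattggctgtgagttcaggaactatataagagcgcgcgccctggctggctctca
Tap1, chr17:34187306-34187555, plus strand: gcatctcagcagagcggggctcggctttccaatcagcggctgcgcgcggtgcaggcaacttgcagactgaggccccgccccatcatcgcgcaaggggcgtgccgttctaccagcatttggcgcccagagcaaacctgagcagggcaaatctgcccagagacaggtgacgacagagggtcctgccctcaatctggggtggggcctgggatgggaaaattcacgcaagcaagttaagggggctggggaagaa

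In the full window, from 250 bases before to 50 bases after the start, the strict NF-kB consensus was found in 5 of the 8 promoters, those of H2-M2, H2-K1, H2-D1, B2m and H2-M3, and in 4.51% of all 32851 promoters in the table. H2-M2 held 2 separate matches, beginning 180 and 146 bases before the start. In H2-K1 and H2-D1 the marked run matched on both strands in overlapping positions, and it lay inside a stretch of 47 bases that both promoters share without a difference. A looser pattern, GGGNNNNNCC, was found in 6 of the 8, Tap1 among them, but also in 50.8% of all promoters. The ISRE was found in B2m, where it begins 139 bases before the start, and in H2-T23, against 3.44% of all promoters. Only exact matches to this pattern were counted. A promoter without a match, such as those of H2-K1, H2-D1 and H2-M3, may therefore still hold a variant of the element. A match is a description of letters and does not show that a factor binds there. The CCAAT box (CCAAT), which class I promoters use to bind nuclear factor Y, was in 8 of the 8 and in 37.4% of all promoters, and the interferon-gamma-activated pattern TTCNNNGAA was in H2-M3 and in 8.30% of all.

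Reads that fit more than 1 heavy chain gene could have been split or lost in counting, and the counting method is not given in the sources used here. The longest coding run that H2-K1 and H2-D1 have in common is 91 bases, in exon 4 of both genes, which encodes part of the extracellular domain next to the membrane.
H2-K1, chr17:33997343-33997433, minus strand, and H2-D1, chr17:35265911-35266001, plus strand: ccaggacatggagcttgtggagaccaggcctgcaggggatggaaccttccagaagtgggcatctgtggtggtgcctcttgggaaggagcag
Of all stretches of 100 bases in the annotated transcripts, 0.957% in H2-K1, 3.59% in H2-D1 and 3.15% in H2-T23 also occurred in transcripts of another gene. H2-M2, H2-M3, B2m and Nlrc5 had 0 such stretches. At 50 bases the shares were 9.63% in H2-K1, 12.8% in H2-D1 and 1.61% in H2-M2. Tapbp shared 14.8% of its stretches of 100 bases, nearly all with the antisense gene Gm19412, on which no read was counted. Tap1 overlaps Psmb9 on the opposite strand by 212 bases of exon, and Tap2 overlaps 2 noncoding genes, so their counts depend on a use of strand that is not given.

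The libraries held 29863927 to 55623068 counts. Values are CPM, the count of a gene scaled to a library of standard size after TMM normalization, and 3 counts correspond to at most 0.102 CPM. Each of the 10 genes had at least 538 counts in every library. Counting error, taken from the lowest count in a genotype, was smaller than the spread between libraries for all 10 in WT and for 8 in Nfkb2-/- cells. It exceeded the spread for H2-M2 (3.69% against a coefficient of variation of 2.85%) and H2-T23 (2.11% against 1.48%). Nfkb2 itself measured 215, 154 and 355 CPM in WT and 44.8, 32.3 and 32.6 CPM in Nfkb2-/- replicates 1, 2 and 3. Nfkb2-/- replicate 1 had a count on 47952 genes, against 27692 to 33841 in the other libraries. WT replicate 3 stood apart in macrophage markers, whose summed level was 178 CPM there, 1006 and 1189 CPM in the other WT libraries and 642 to 870 CPM in Nfkb2-/-. For the BMDC label 6 dendritic cell markers were checked, and all 6 were present in every library, with Cd74 at 1870 to 3691 CPM, H2-Ab1 at 696 to 1139 CPM, Zbtb46 at 115 to 218 CPM, Flt3 at 12.1 to 17.0 CPM and Cd209a at 3.51 to 26.9 CPM. Itgax, which encodes CD11c, measured 160, 277 and 123 CPM in WT and 745, 769 and 716 CPM in Nfkb2-/- libraries and was called higher in the latter (log2 fold change 1.99, SE 0.30, edgeR adjusted p = 0.0414). Zbtb46 went the other way, at 168, 151 and 218 CPM in WT and 115, 136 and 119 CPM in Nfkb2-/- libraries. It was not called (log2 fold change -0.54, SE 0.18, edgeR adjusted p = 0.192). The remaining dendritic cell markers overlapped between the genotypes. Granulocyte markers summed to 83.7 to 227 CPM and mast cell and basophil markers to 43.9 to 54.3 CPM, the tested B cell markers summed to at most 4.96 CPM, the tested T and NK cell markers to at most 1.92 CPM, and no erythroid marker had more than 19 counts in a library. Cpa3, a mast cell protease gene, measured 10.8, 6.31 and 6.85 CPM in WT and 1.86, 2.34 and 2.49 CPM in Nfkb2-/- libraries and was called lower (log2 fold change -1.84, SE 0.28, edgeR adjusted p = 0.0413). Kit, the most abundant marker of that list, measured 41.2, 43.0 and 37.2 CPM in WT and 41.2, 45.9 and 50.5 CPM in Nfkb2-/- libraries. Its genotypes overlapped (log2 fold change 0.18). Ms4a2 and Mcpt8, at 1.42 CPM or less, were lower in every Nfkb2-/- library and not called. The part of these markers in the class I values was not tested.

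H2-M2, the nonclassical heavy chain gene of the M region, had the largest difference of the 10. It measured 284, 85.1 and 546 CPM in WT replicates 1, 2 and 3, and 25.2, 24.2 and 23.8 CPM in Nfkb2-/- replicates 1, 2 and 3. Every WT library was above every Nfkb2-/- library, the WT libraries lay far apart, and the Nfkb2-/- libraries were nearly level. The WT mean was 305 ± 231 CPM and the Nfkb2-/- mean 24.4 ± 0.696 CPM (SD, n = 3 each). On the log2 scale the change was -3.64, with a standard error (SE) of 0.62 and, from edgeR, a p-value of 0.0478 after Benjamini-Hochberg adjustment. Over all genes tested, 1.14% passed the same threshold of an adjusted p under 0.05 and a fold change over 1.2, that is 248 of 21849. The call lies close to the threshold and rested on single libraries. The adjusted p was 0.113, 0.217 and 0.203 without Nfkb2-/- replicate 1, 2 or 3 and 0.193 without WT replicate 1, in fits in which edgeR called 0 genes at all, although 2325 to 4088 genes had an unadjusted p under 0.05. Leaving out WT replicate 2 gave 0.00634, leaving out WT replicate 3 gave 0.0498, and DESeq2 on all 6 libraries gave 2.50e-09. The log2 fold change stayed between -4.09 (WT replicate 2 left out) and -2.92 (WT replicate 3 left out) in all 14 alternative fits.

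**Figure D1:**
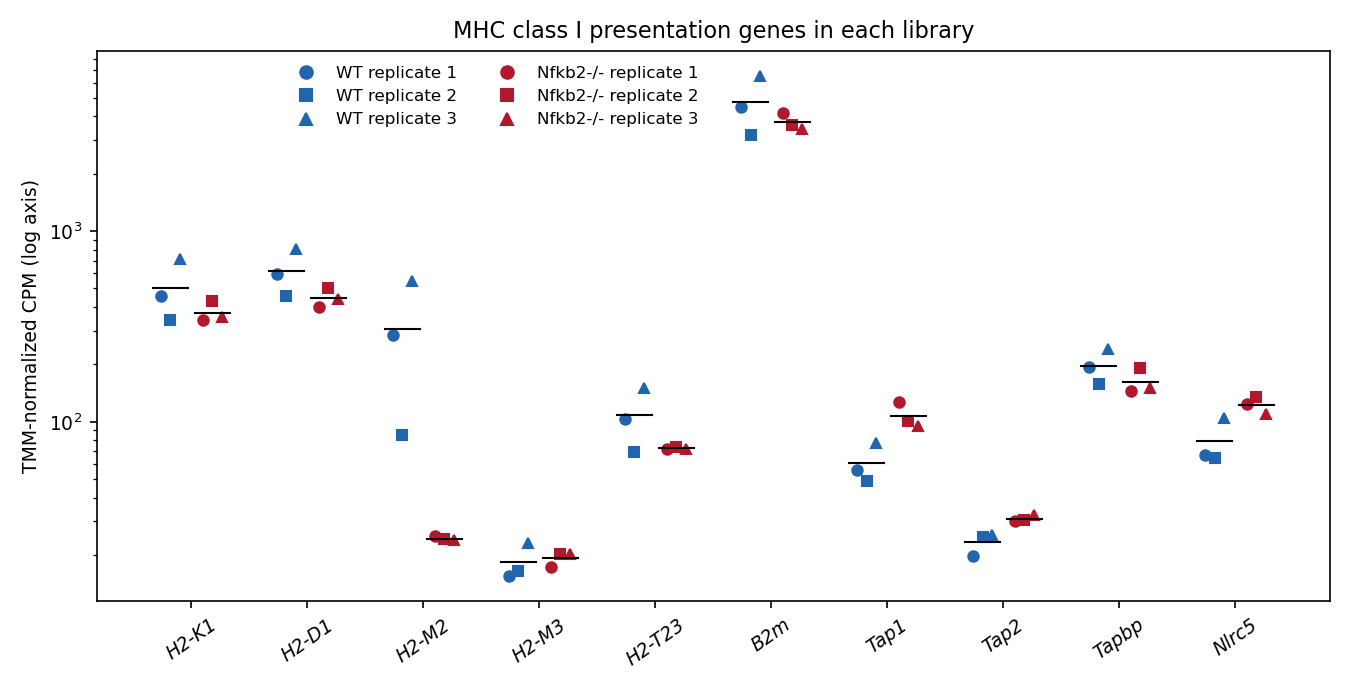
TMM-normalized CPM (log axis) of the 10 MHC class I presentation genes in each library, with WT in blue, Nfkb2-/- in red, a marker shape for each replicate number and a black line at the mean of 3 libraries. The WT values of H2-M2 run from 85.1 to 546 CPM, above the Nfkb2-/- values near 24 CPM, and WT replicate 3 is the highest WT library for all 10 genes.

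The order of the WT libraries in H2-M2, with replicate 3 highest and replicate 2 lowest, was also that of 7 of 10 markers of mature dendritic cells, and Cd80, Cd86 and Ccl17 had replicate 1 lowest. This order was not particular to these markers. It was found in 8 of the 10 class I genes, 7 of 11 peptide generation genes and 6 of 10 class I regulators. Class II presentation genes had it in 5 of 10. Among cross-presentation genes it was found in 1 of 10, and among macrophage markers in 0 of 10. Over all genes tested, replicate 3 was the highest WT library in 37.3% and replicate 2 the lowest in 35.8%. The share of all genes with both was not counted. Fscn1, an actin-bundling protein of mature dendritic cells, measured 1378, 719 and 1853 CPM in WT and 479, 416 and 515 CPM in Nfkb2-/- libraries. Ccr7, the receptor that guides these cells to lymph nodes, measured 1149, 640 and 1897 CPM in WT and 673, 611 and 596 CPM in Nfkb2-/- libraries. Of the 10 markers, edgeR called Il12b lower and Ccl17 higher in Nfkb2-/- cells, against 1.14% called of all genes tested. DESeq2 called 4, Ccl17, Cd83, Fscn1 and Il12b, and 8.60% of all genes tested. For 8 of the 10 the unadjusted edgeR p was under 0.05, against 3730 of all 21849 genes tested. Ccl17, a chemokine of dendritic cells, measured 161, 361 and 432 CPM in WT and 2385, 2472 and 2357 CPM in Nfkb2-/- libraries, far above WT in all 3. The Nfkb2-/- libraries lay below every WT library for 4 of the 10 markers (12.0% of all genes tested) and above for 2 (12.7% of all genes tested), and the list's summed level was 9271 to 18067 CPM in WT and 10559 to 11268 CPM in Nfkb2-/-. None of the 10 was at 0 in any library. Their part in the difference of H2-M2 was not tested.

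The classical heavy chains H2-K1 and H2-D1 did not pass the test. H2-K1 measured 455, 340 and 714 CPM in WT and 340, 429 and 353 CPM in Nfkb2-/- replicates 1, 2 and 3. H2-D1 measured 595, 458 and 808 CPM in WT and 398, 503 and 440 CPM in Nfkb2-/- replicates 1, 2 and 3. In both genes WT replicate 3 was the highest library and the genotypes overlapped, since WT replicate 2 lay within or at the edge of the Nfkb2-/- range. Their changes on the log2 scale were -0.43 (SE 0.28, edgeR adjusted p = 0.486) for H2-K1 and -0.47 (SE 0.23, edgeR adjusted p = 0.367) for H2-D1. Leaving out WT replicate 3 brought them to -0.086 and -0.23, and leaving out WT replicate 2 to -0.64 and -0.65, with no adjusted p under 0.05 in either case.

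Summed, the 2 classical heavy chains came to 1124 ± 368 CPM (SD, n = 3) in WT and 821 ± 99.6 CPM (SD, n = 3) in Nfkb2-/- cells. The log2 difference was -0.41 (two-sided exact permutation p = 0.2, where the smallest p that 3 libraries against 3 allow is 0.1). Without WT replicate 3 the difference was -0.16. The 2 genes made up 62.1% to 72.9% of the CPM of all 15 tested H2-K, H2-D, H2-Q, H2-T and H2-M heavy chain genes in WT libraries and 73.6% to 76.8% in Nfkb2-/- libraries. Summed over these 15 genes, H2-M2 among them, the difference was -0.60 (exact permutation p = 0.2).

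B2m, the light chain that every class I heavy chain needs, was the most abundant of the 10 mRNAs. It measured 4491, 3178 and 6529 CPM in WT and 4165, 3617 and 3448 CPM in Nfkb2-/- libraries. The highest and the lowest value were both in WT, and the Nfkb2-/- libraries lay between them. Its log2 fold change was -0.34 (SE 0.29, edgeR adjusted p = 0.594), and without WT replicate 3 it was -0.033.

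Of the other nonclassical heavy chains, H2-T23 encodes Qa-1, a ligand of the NKG2 receptors on NK cells, and H2-M3 presents formylated peptides of bacteria. H2-T23 measured 103, 69.7 and 151 CPM in WT and 71.8, 73.7 and 71.9 CPM in Nfkb2-/- libraries, with WT replicate 2 below all 3 Nfkb2-/- libraries. Its log2 fold change was -0.57 (SE 0.27, edgeR adjusted p = 0.335), which became -0.25 when WT replicate 3 was left out and -0.81 (adjusted p = 0.0692) when WT replicate 2 was. H2-M3 measured 15.6, 16.6 and 23.1 CPM in WT and 17.2, 20.3 and 20.2 CPM in Nfkb2-/- libraries, and the ranges overlapped. Its log2 fold change was 0.06 (SE 0.20, edgeR adjusted p = 0.896), and its sign turned with no filter on low counts (-0.00094) and with 3 of the 6 libraries left out in turn.

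None of the 3 loading genes passed the edgeR test, and their log2 fold changes differed in sign. Tap1, a subunit of the peptide transporter, measured 55.8, 48.7 and 77.4 CPM in WT and 126, 101 and 94.8 CPM in Nfkb2-/- libraries. All 3 Nfkb2-/- values lay above the WT values. The log2 fold change of 0.83 (SE 0.21) missed the edgeR threshold (unadjusted p = 0.00583, adjusted p = 0.119) and passed it by DESeq2 (adjusted p = 0.0175), where 8.60% of all genes tested were called. Tap2, the other subunit, measured 19.8, 25.0 and 25.5 CPM in WT and 30.0, 30.6 and 32.4 CPM in Nfkb2-/- libraries, again without overlap. Its log2 fold change was 0.40 (SE 0.16, edgeR adjusted p = 0.249). Tapbp measured 193, 158 and 240 CPM in WT and 145, 191 and 151 CPM in Nfkb2-/- libraries, with overlap, and had a log2 fold change of -0.28 (SE 0.20, edgeR adjusted p = 0.525), or -0.11 when WT replicate 3 was left out.

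Nlrc5, the transactivator of class I genes, measured 66.7, 64.9 and 105 CPM in WT and 123, 135 and 110 CPM in Nfkb2-/- libraries. The lowest Nfkb2-/- library lay just above WT replicate 3 and well above the other WT libraries. The log2 fold change was 0.64 (SE 0.22, edgeR unadjusted p = 0.0223, adjusted p = 0.204). Without WT replicate 3 it was 0.90 (adjusted p = 0.0557, edgeR). Nlrc5, Tap1 and Tap2 were therefore the 3 of 10 genes with all Nfkb2-/- libraries above all WT libraries, a pattern that 12.7% of all genes tested showed, and H2-M2 was the 1 of 10 with all Nfkb2-/- libraries below, a pattern of 12.0% of all genes tested. None of the 3 passed edgeR's test.

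Over the 10 genes the median log2 fold change was -0.31, with a range from -3.64 to 0.83, beside a median of 0.08 over all genes tested. The spread within WT exceeded that within Nfkb2-/- cells, as the highest library divided by the lowest, in 10 of the 10 genes and in 52.7% of the 20342 genes with a value above 0 in every library. In WT this quotient was 6.41 for H2-M2 and 1.29 to 2.17 for the other 9, and in Nfkb2-/- cells it was 1.03 to 1.33 for all 10. WT replicate 3 was the highest WT library for 10 of the 10 genes, against 37.3% of all genes tested, and WT replicate 2 the lowest for 8 of the 10, against 35.8%.

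To compare levels between genes, CPM were divided by exonic length in kb. In WT the order was B2m (5503 ± 1963 CPM per kb, SD, n = 3), H2-D1 (241 ± 68.5), H2-M2 (197 ± 149) and H2-K1 (171 ± 65.3). Then came Tapbp (54.3 ± 11.3), H2-T23 (37.4 ± 14.1), H2-M3 (12.8 ± 2.85), Tap1 (11.1 ± 2.73), Nlrc5 (9.30 ± 2.69) and Tap2 (6.20 ± 0.839). The ranges of H2-D1, H2-M2 and H2-K1 overlapped in WT, as did those of Tapbp with H2-T23 and those of H2-M3, Tap1 and Nlrc5 between neighbours. In Nfkb2-/- cells H2-M2 stood at 15.7 ± 0.449 CPM per kb (SD, n = 3), between Tap1 (19.6 ± 3.06) and Nlrc5 (14.5 ± 1.52). The range of H2-M2 overlapped that of Nlrc5 alone among its neighbours. In Nfkb2-/- cells B2m, H2-D1, H2-K1, Tapbp, H2-T23 and Tap1 followed each other from 4353 ± 435 CPM per kb down with no overlap between neighbours. On this per-length scale H2-M2 had rank 3 of 10 in WT and rank 7 in Nfkb2-/- cells.

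Ratios within a library do not depend on how libraries are scaled to each other, and 4 were tested. The ratio of H2-K1 to H2-D1 counts was 0.765, 0.743 and 0.884 in WT and 0.856, 0.853 and 0.802 in Nfkb2-/- libraries, which overlapped (exact permutation p = 0.4, adjusted over the 4 ratios p = 0.533). H2-K1 and H2-D1 together came to 0.239 ± 0.0102 of B2m in WT and to 0.222 ± 0.0408 in Nfkb2-/- cells (SD, n = 3, exact permutation p = 0.7, adjusted p = 0.7). Nfkb2-/- replicate 1, at 0.177, was the only library far from the others in this ratio.

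Against class II the classical heavy chains lay lower in all 3 Nfkb2-/- libraries than in any WT library. H2-K1 and H2-D1 came to 0.180, 0.191 and 0.198 of the summed counts of H2-Aa, H2-Ab1, H2-Eb1 and Cd74 in WT and to 0.131, 0.178 and 0.123 in Nfkb2-/- libraries. The log2 difference was -0.42 (exact permutation p = 0.1, the smallest possible, adjusted p = 0.2). Of the 10 class II presentation genes, edgeR, DESeq2 and limma voom each called 0. An unadjusted edgeR p under 0.05 was found for 2 of them (smallest adjusted p = 0.247), against 3730 of all 21849 genes tested. H2-M2 came to 0.271, 0.107 and 0.358 of H2-K1 and H2-D1 in WT and to 0.0341, 0.0259 and 0.0300 in Nfkb2-/- libraries, a 7.30-fold difference (log2 difference -2.87, exact permutation p = 0.1, adjusted p = 0.2). With 3 libraries per genotype no ratio could have passed 0.05.

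**Figure D2:**
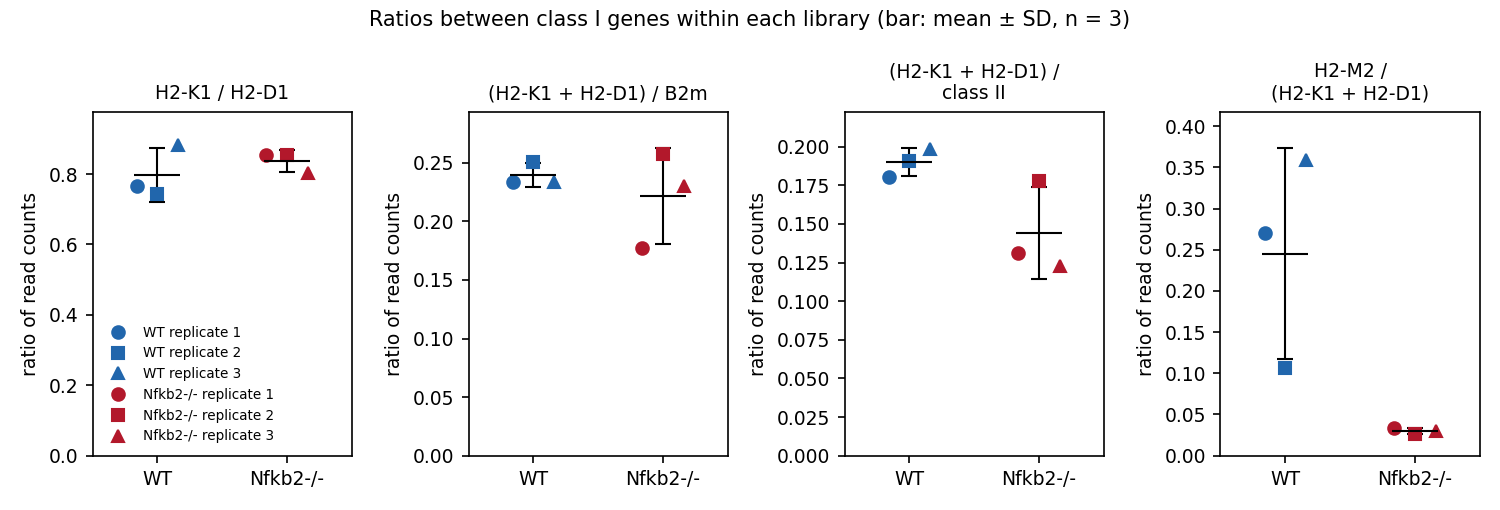
Ratio of read counts within each library for H2-K1 to H2-D1, for both to B2m, for both to the class II genes H2-Aa, H2-Ab1, H2-Eb1 and Cd74, and for H2-M2 to both, with 1 point per library and a bar at the mean ± SD (n = 3), on axes that start at 0. The genotypes overlap in the first 2 panels and do not overlap in the last 2, where the ratio to class II is 0.190 in WT against 0.144 in Nfkb2-/- cells and that of H2-M2 0.245 against 0.0300.

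Ratios of Tap1 and Nlrc5 to the classical heavy chains were looked at after the values were seen and are given without a test. Tap1 came to 5.32%, 6.10% and 5.08% of the H2-K1 and H2-D1 counts in WT and to 17.1%, 10.9% and 12.0% in Nfkb2-/- libraries. Nlrc5 came to 6.35%, 8.13% and 6.91% in WT and to 16.7%, 14.5% and 13.8% in Nfkb2-/- libraries. In both ratios the Nfkb2-/- libraries all lay above the WT libraries, and the WT libraries lay close together.

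Around the 10 genes, 61 other genes of the route were listed by role, and 51 of them had enough counts to be tested. Of the 51, edgeR called 1, Irf1, which was lower in Nfkb2-/- cells, and this share can be read against the 1.14% called over all genes. All Nfkb2-/- libraries were above all WT libraries in 9 of the 51 (12.7% of all genes tested) and below in 8 (12.0% of all genes tested). DESeq2 called 5 of the 51 and 8.60% of all genes tested. The 5 were Calr, Cd1d1, Clec9a, Irf1 and Wdfy4, of which Calr, Clec9a and Wdfy4 were the higher ones in Nfkb2-/- cells.

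Irf1 encodes an interferon regulatory factor that binds class I promoters. It measured 24.4, 19.4 and 29.9 CPM in WT and 10.7, 10.8 and 11.2 CPM in Nfkb2-/- libraries. Each Nfkb2-/- value lay well below the lowest WT value. The log2 fold change was -1.17 (SE 0.19, edgeR adjusted p = 0.0461), and the call was lost without WT replicate 1 or 3 and without any 1 of the Nfkb2-/- libraries. The other 9 regulators were not called, and the list's median was -0.17. Rfx5, a partner of NLRC5 at class I promoters, had a log2 fold change of -0.25, Irf2 of -0.23, Creb1 of -0.28 and Nfya of -0.03, with adjusted p from 0.449 to 0.956 (edgeR).

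Interferon-stimulated genes were set beside Irf1 and Nlrc5, since many class I genes respond to interferon. Of 12, edgeR and limma voom called 0 and DESeq2 called 5 (8.60% of all genes tested). Of the 12, 6 had an unadjusted edgeR p under 0.05, against 3730 of all 21849 genes tested. The median log2 fold change was 0.65, and the Nfkb2-/- libraries all lay above the WT libraries for 5 of the 12 and below for 1, beside 12.7% and 12.0% of all genes tested. The log2 fold change was above 0 for 11 of the 12 and below 0 for Mx1. WT replicate 3 was the lowest WT library for Ifit1, Ifit2, Ifit3, Isg15, Irf7, Oasl2 and Rsad2. Oasl2, for example, measured 25.6, 36.1 and 2.93 CPM in WT replicates 1, 2 and 3. That library was the highest of WT for Gbp2, Mx1, Mx2 and Usp18. Its part in the fold changes of this list was not tested. Gbp2, a guanylate-binding protein, measured 137, 182 and 196 CPM in WT and 274, 347 and 285 CPM in Nfkb2-/- libraries (adjusted p = 0.0940, edgeR). Mx1, an antiviral GTPase, measured 546, 405 and 729 CPM in WT and 354, 291 and 317 CPM in Nfkb2-/- libraries (adjusted p = 0.149, edgeR). Isg15 and Cxcl10, named after their values were seen, had log2 fold changes of 1.95 and 1.64 (adjusted p = 0.0625 and 0.0723, edgeR) at levels of at most 4.42 CPM.

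For the genes that make the peptides, edgeR, DESeq2 and limma voom called 0 of 11, and the median log2 fold change was 0.14. None had an unadjusted edgeR p under 0.05, against 3730 of all 21849 genes tested. Psmb9, an immunoproteasome subunit whose gene abuts Tap1, measured 25.3, 23.2 and 39.5 CPM in WT and 36.2, 40.6 and 37.2 CPM in Nfkb2-/- libraries. Its genotypes overlapped, and it is named here as the neighbour of Tap1, outside the naming rule. Psme1, a subunit of the PA28 proteasome activator, measured 166, 131 and 211 CPM in WT and 121, 127 and 130 CPM in Nfkb2-/- libraries. Those genotypes missed an overlap by little, with Nfkb2-/- replicate 3 and WT replicate 2 nearly equal (log2 fold change -0.42, adjusted p = 0.330, edgeR). Psme2, its partner, had a log2 fold change of -0.59 (adjusted p = 0.334, edgeR). Erap1, which trims peptides in the endoplasmic reticulum, had one of -0.16, Psme3 one of 0.14, and Lnpep, an aminopeptidase of endosomes, one of -0.02.

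Of the 5 chaperones and editors of the endoplasmic reticulum, edgeR and limma voom called 0 and DESeq2 called Calr. An unadjusted edgeR p under 0.05 was found for 4 of the 5, against 3730 of all 21849 genes tested. The median log2 fold change was 0.44. Calr (calreticulin), which holds class I molecules during loading, measured 314, 329 and 279 CPM in WT and 379, 492 and 452 CPM in Nfkb2-/- libraries. All Nfkb2-/- libraries were higher, with a log2 fold change of 0.52 (adjusted p = 0.171, edgeR). Hspa5 (BiP) was higher in the same way, with a log2 fold change of 0.59 (adjusted p = 0.199, edgeR), and Pdia3, a disulfide isomerase of the loading complex, had 0.44 and Canx (calnexin) 0.08, both with overlap. Tapbpl, the tapasin-related peptide editor, measured 23.5, 13.6 and 33.5 CPM in WT and 14.2, 13.9 and 12.8 CPM in Nfkb2-/- libraries (log2 fold change -0.79, adjusted p = 0.250, edgeR). Its WT libraries had the order of those of H2-M2, with replicate 3 highest and replicate 2 lowest.

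Of the 25 further class I heavy chain genes, 15 were tested, edgeR and limma voom called 0, and DESeq2 called Cd1d1. Of the 15, 1 had an unadjusted edgeR p under 0.05, against 3730 of all 21849 genes tested. The 10 untested ones, H2-Q2, H2-M1, H2-M9, H2-M11 and the H2-M10 genes, had at most 38 counts in a library. Cd1d1, which presents lipids to NKT cells, measured 28.9, 41.0 and 49.5 CPM in WT and 20.2, 23.2 and 25.4 CPM in Nfkb2-/- libraries. All Nfkb2-/- libraries were lower (log2 fold change -0.79, adjusted p = 0.136, edgeR). H2-Q4 had a log2 fold change of -0.25 and H2-T22 of -0.28, with overlap. Hfe, an iron regulator with the class I fold, had 0.84 (adjusted p = 0.431, edgeR), with every Nfkb2-/- library higher and WT replicate 3 lowest at 6.57 CPM, and Fcgrt, the neonatal Fc receptor, had 0.39 with overlap. The list's median was 0.29, and 3 of the 15 were under 1 CPM in every library.

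For cross-presentation edgeR and limma voom called 0 of 10, DESeq2 called Clec9a and Wdfy4, and the median log2 fold change was -0.10. An unadjusted edgeR p under 0.05 was found for 3 of the 10, against 3730 of all 21849 genes tested. Wdfy4, a protein needed for cross-presentation by type 1 conventional dendritic cells, measured 91.4, 231 and 25.5 CPM in WT and 557, 533 and 546 CPM in Nfkb2-/- libraries. The Nfkb2-/- libraries were level and all higher, while the WT libraries differed widely, with replicate 3 lowest (log2 fold change 2.23, SE 0.68, edgeR adjusted p = 0.160). Without WT replicate 2 the gene was called. Cybb, the catalytic subunit of the phagosomal NADPH oxidase, measured 625, 535 and 54.3 CPM in WT and 226, 348 and 324 CPM in Nfkb2-/- libraries, with WT replicate 3 lowest as in the macrophage markers. Its log2 fold change was -0.43 (adjusted p = 0.797, edgeR). Sec61a1, a channel subunit of the endoplasmic reticulum, had a log2 fold change of 0.30 with every Nfkb2-/- library higher, Rab27a one of -0.38 with every one lower, and Cyba one of -0.04, none past the threshold.

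**Figure D3:**
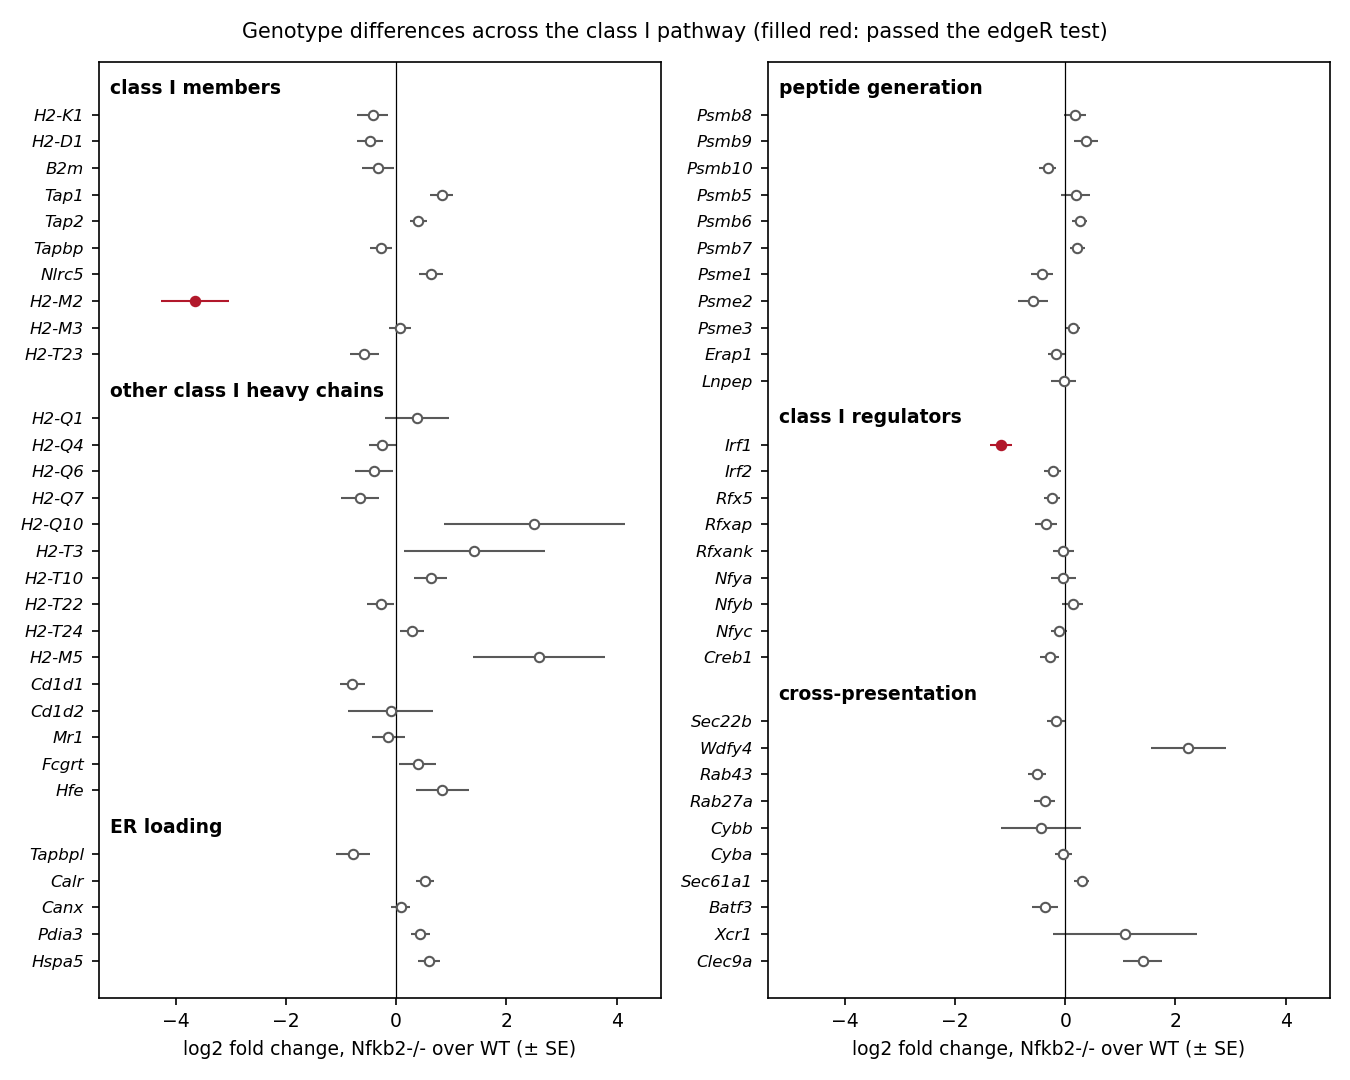
Log2 fold change of Nfkb2-/- over WT with its standard error (edgeR, 3 libraries per genotype) for the 10 class I genes and for 50 of the 51 tested genes of the 5 other lists, with called genes as filled red points. H2-M2 at -3.64 and Irf1 at -1.17 are the only called genes shown, and the wide bars belong to genes with few counts or, as for Wdfy4 and Cybb, with libraries far apart.

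The genes whose pattern over the 6 libraries was most like that of 3 of the 10 were found by the root mean square distance between log2 CPM centred on each gene's mean, among 10645 other genes that averaged 5 CPM or more. For H2-M2 they were Il12b (distance 0.30), Acvr1c (0.46), Spata31d1b (0.47), Mgam2-ps (0.48) and Olfr106-ps (0.49). Il12b, the p40 subunit of IL-12 and IL-23, measured 110, 32.7 and 153 CPM in WT and 10.63, 13.74 and 10.42 CPM in Nfkb2-/- libraries, so that it repeated the order of the WT libraries as well as the drop. No other of the 10 class I genes was near H2-M2, the closest being H2-T23 at 1.46.

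For Nlrc5 the nearest genes were Pigf (0.07), Rbbp7 (0.09), Galm (0.11), Adar (0.11) and Txnip (0.12), and among the 10 class I genes it was Tap1 at 0.17 and Tap2 at 0.26. Adar, an RNA-editing enzyme, measured 64.1, 68.0 and 85.6 CPM in WT and 121, 122 and 105 CPM in Nfkb2-/- libraries. For B2m they were Ehd1 (0.05), Hps6 (0.05), Ints3 (0.06), H2-Q4 (0.07) and Dxo (0.08), and among the 10 it was H2-T23 at 0.14, H2-K1 at 0.17 and H2-D1 at 0.19. H2-M3 lay about as far from B2m (0.31) as from Nlrc5 (0.32). These distances describe 6 libraries of the same culture scheme and carry no test.

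**Figure D4:**
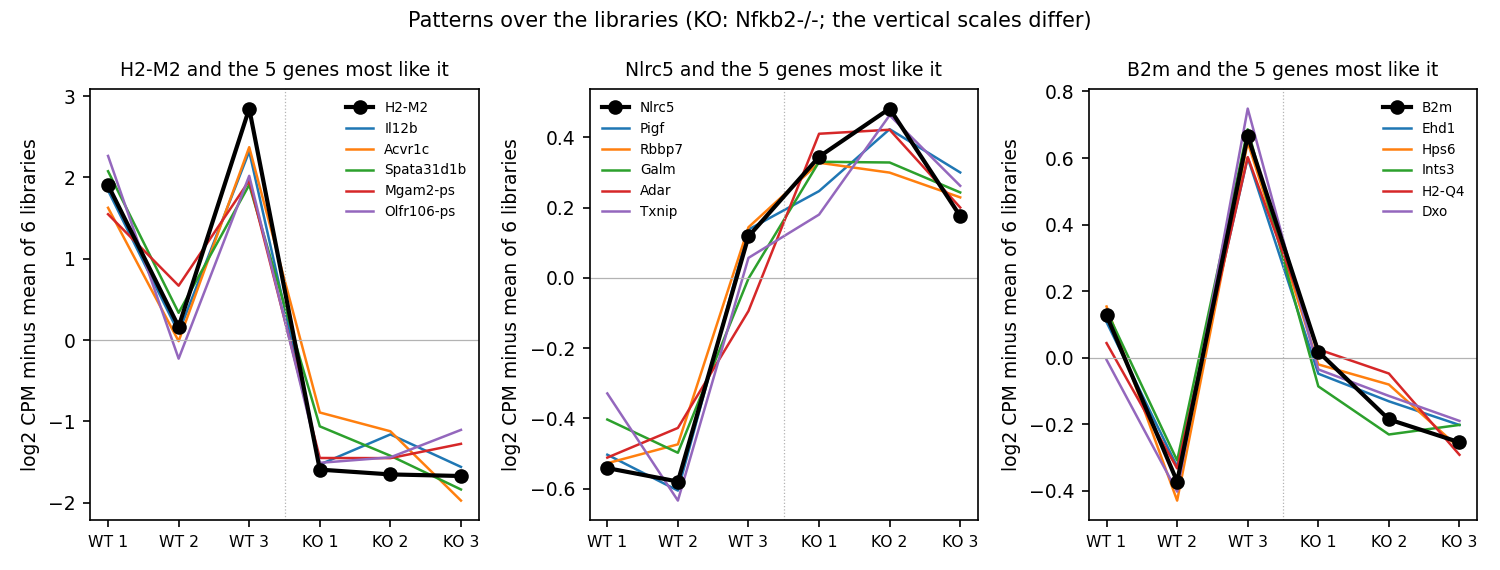
Log2 CPM minus the gene's mean over the 6 libraries for H2-M2, Nlrc5 and B2m (black) and for the 5 genes most like each (colours), where lines only join the values of a gene and the vertical scales differ. H2-M2 and Il12b are high in WT with a dip in replicate 2, Nlrc5 is higher in the Nfkb2-/- libraries, and B2m peaks in WT replicate 3 at little difference between the genotypes.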

How the data were processed

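The 6 RNA-seq libraries of BMDCs, 3 from WT and 3 from Nfkb2-/- marrow, were assigned by their sample labels. The study describes its RNA-seq data as 3 independent biological replicates for each genotype. The labels do not say that libraries came from separate mice, so that p-values measure the spread between these libraries. The authors deposited whole-number read counts per Ensembl gene without normalization. The submitters' processing notes name HISAT2 and GRCm38 (mm10). The version, counting tool, annotation and use of strand are not given in the sources used here, and the joined table, which holds the same values, was not used. The labels place IL-4 in the last 4 days of culture.

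Genes were kept when named in GENCODE M21 and when their counts in the 6 libraries summed to 50 or more. Counts on IDs without a name, 1.01% to 1.75% of a library, stayed out of library sizes and tests. Genotypes were compared over all kept genes with edgeR 4.0.16 (TMM, glmQLFit, glmQLFTest) in R 4.3.3, with Benjamini-Hochberg adjusted p under 0.05 and fold change over 1.2 as the call. The standard error is the size of the log2 fold change divided by the square root of F. Sums and ratios were tested with two-sided exact permutation tests (SciPy, n = 3 per genotype). Only the edgeR, DESeq2 and limma voom fits were run on simulated counts, and the permutation tests were not. The simulated dispersion, the spread between libraries, was 0.05, below edgeR's common dispersion of 0.219 in these data. That run therefore does not measure how well the fits perform on these data. Log2 CPM used a prior count of 2. Alternatives were DESeq2 1.42.0, limma voom 3.58.1, RLE size factors, total counts, filterByExpr, no filter, a minimum of 10 counts per library, the replicate block and omission of each library. Members, gene lists and tests were chosen with earlier results of these data known. Named genes were the 10 members, the called genes and up to 5 of the most abundant genes of each other list, and the 5 genes most like H2-M2, Nlrc5 and B2m. Other genes named were chosen after their values were seen. Depth ranged from 29863927 to 55623068 counts per library. Values of 1 gene of the regulator list are not reported here.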

Additional observations from a re-analysis of the deposited data

How the results depend on the processing

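H2-M2 was the only 1 of the 10 class I genes called by edgeR and by limma voom, with RLE size factors or total counts, and under every filter tried, and DESeq2 called 2, H2-M2 and Tap1. At an adjusted p under 0.1 the count stayed at 1. With 1 library left out the count among the 10 ranged from 0 to 1, that over all genes from 0 to 1248 and that among the other pathway genes from 0 to 3. Over all genes tested, DESeq2 called 1878, limma voom 488, filterByExpr 397, no filter 1625 and a minimum of 10 counts in every library 459, against 248. Among the 51 other pathway genes DESeq2 called 5 and no filter 4, against 1. With the replicate block edgeR called 0 genes over all, 0 of the 10 and 0 of the other pathway genes, although 3331 genes had an unadjusted p under 0.05, and H2-M2 had a log2 fold change of -3.30 (adjusted p = 0.0716). The labels of libraries of the same number give no pairing. Their deviations from the group means correlated at 0.138, 0.060 and 0.020. Libraries of different number gave -0.147 to 0.078. With 3 libraries per genotype these values cannot show whether libraries of the same number shared a preparation. The cause of these changes was not tested.

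The sign of H2-M3 turned to -0.00094 with no filter, and with 1 library left out its log2 fold change ranged from -0.044 to 0.26. The ratio of H2-K1 and H2-D1 to B2m turned to 0.025 without Nfkb2-/- replicate 1 and ranged from -0.24 to 0.025 with 1 library left out. All other member fold changes, ratios and sums kept their direction in the alternatives run. Groups of 3 libraries limit every exact test to p of 0.1 or more, and for H2-M2 and H2-T23 in Nfkb2-/- cells the spread between libraries was below the counting error.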
